A study of Mus musculus with 12 samples.

Results

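The clustered histone genes are the mouse genes whose symbols begin with Hist1h, Hist2h, Hist3h or Hist4h. All 70 such genes of the 49492 in the count table were taken, together with the 27 of 42989 peaks of RNA methylation that carry their names. By the protein encoded they were 6 linker histone H1 genes, 20 H2A, 19 H2B, 12 H3 and 13 H4 genes. By symbol they form 4 groups, with 56 Hist1 genes on chromosome 13 and 10 Hist2 genes on chromosome 3. The others are 3 Hist3 genes on chromosome 11 and 1 Hist4 gene on chromosome 6. Hist1h2al lies apart, starting at base 51202688, whereas the other Hist1 H2A genes lie between bases 21716422 and 23934851. RefSeq classes 3 of the 70 (Hist1h2aj, Hist1h2al and Hist3h2bb-ps) as pseudogenes.

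These genes supply the histones that package newly copied DNA, and their expression is coupled to S phase, when cells replicate their genome. H2A, H2B, H3 and H4 form the core around which DNA is wound, and H1 binds the linker DNA between cores. Their messenger RNAs are mostly short and without introns, and typically end in a conserved stem-loop in place of a poly(A) tail. The stem-loop is bound by SLBP and cut with the help of the U7 small nuclear RNA, and the messages are degraded quickly when replication stops. In skin, dividing cells are found mainly in the basal epidermis and the hair follicle matrix.

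The study examined N6-methyladenosine (m6A), a methyl mark on messenger RNA, in mouse skin after ultraviolet (UV) exposure, in a work on photoaging and the m6A writer subunit KIAA1429. The labels give 3 control and 3 UV skin samples, each with an m6A antibody library (IP) and an input library of the same RNA. Strain, sex, age, the kind, dose and timing of UV, and whether samples are separate animals are not stated by the labels, so p-values measure the spread between these samples. Total RNA was made into libraries with a stranded mRNA kit, and how the kit's input was selected or depleted is likewise not given.

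A library held between 24126662 and 92163619 reads in genes, and clustered histone genes took 0.196% to 0.315% of them. The 4 basal keratinocyte markers (Krt5, Krt14, Krt15, Col17a1) summed to 4677 to 9678 CPM (read counts scaled to library size) in control and 9612 to 14278 in UV input. Of the marker lists, 3 of 5 T cell markers fell (summed CPM 41.2 to 61.2 in control, 33.9 to 40.8 in UV), as did 2 of 5 skeletal muscle markers (3200 to 7790 and 913 to 2701), 1 of 4 fibroblast markers (8344 to 9326 and 5887 to 6917), 1 of 4 macrophage markers (70.7 to 95.2 and 66.2 to 80.5) and 1 of 4 basal keratinocyte markers. Most of the T cell sum was Thy1, at a mean of 38.8 CPM in control and 36.8 in UV and not called. Means of the called T cell markers went from 2.82 to 0.35 CPM (Cd3e), 5.47 to 0.79 (Cd3g) and 0.82 to 0.11 (Trdc). No hair matrix, adipocyte or erythroid marker was called. The 8 hair matrix and shaft markers summed to 540 to 1393 CPM in control and 363 to 1231 in UV, and among them Hoxc13 had a log2 change of −1.16 (SE 0.29, adjusted p 0.0531 by edgeR), Msx2 −1.06 (adjusted p 0.0624) and Lef1 −0.77 (adjusted p 0.153). All 3 encode transcription factors of the hair follicle. Among the hair keratins of the list, Krt31 had −0.39, Krt33a −0.24, Krt81 −0.07, Krt33b −0.01 and Krt86 0.40. No marker was at 0 in every input library. The part of these cell types in the histone results was not tested. In whole tissue, fewer cells of a type and less RNA per cell cannot be told apart.

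The DNA upstream of 7 members is shown so that members that fell with UV can be set beside members that did not pass the test. They are the member of each type with the smallest p for the UV comparison, and Hist1h1c and Hist1h2bk. Hist1h1c and Hist1h2bk were not called and were chosen after their values were seen. By input level per length Hist1h1c ranked 2 of the 6 H1 genes and Hist1h2bk 7 of the 19 H2B genes. Each line is the 250 bases before the RefSeq start (RefSeq, GRCm38.p6), read 5′ to 3′ on the gene's strand. Capitals mark any match, in either orientation, to 4 motifs. The first is CCAAT, the box bound by the factor NF-Y. The second is TATAAA, a form of the TATA box near which transcription starts. The third is ATTTGCAT, the octamer that the factor Oct-1 binds upstream of H2B genes. The fourth is AAACACA, a box described in promoters of linker histone genes. The windows lie at chr13:23763418-23763667 (plus strand, Hist1h1a), chr13:23750838-23751087 (plus, Hist1h2ab), chr13:22042948-22043197 (plus, Hist1h2bj), chr3:96239128-96239377 (minus, Hist2h3c2), chr13:21811496-21811745 (plus, Hist1h4m), chr13:23738557-23738806 (plus, Hist1h1c) and chr13:22035571-22035820 (plus, Hist1h2bk).
Hist1h1a: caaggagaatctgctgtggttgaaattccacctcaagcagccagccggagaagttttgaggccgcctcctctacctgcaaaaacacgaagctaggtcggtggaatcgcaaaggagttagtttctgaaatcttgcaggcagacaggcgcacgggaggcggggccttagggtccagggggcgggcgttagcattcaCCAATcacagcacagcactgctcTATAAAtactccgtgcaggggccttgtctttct
Hist1h2ab: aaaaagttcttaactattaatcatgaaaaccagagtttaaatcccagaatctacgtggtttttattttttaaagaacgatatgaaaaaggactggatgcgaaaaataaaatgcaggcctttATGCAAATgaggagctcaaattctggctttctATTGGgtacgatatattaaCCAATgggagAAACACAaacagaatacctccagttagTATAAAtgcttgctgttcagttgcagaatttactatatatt
Hist1h2bj: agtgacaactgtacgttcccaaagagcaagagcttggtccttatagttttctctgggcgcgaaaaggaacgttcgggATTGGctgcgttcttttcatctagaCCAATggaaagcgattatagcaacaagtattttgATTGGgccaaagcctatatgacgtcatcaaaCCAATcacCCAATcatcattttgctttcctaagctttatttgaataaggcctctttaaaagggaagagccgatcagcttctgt
Hist2h3c2: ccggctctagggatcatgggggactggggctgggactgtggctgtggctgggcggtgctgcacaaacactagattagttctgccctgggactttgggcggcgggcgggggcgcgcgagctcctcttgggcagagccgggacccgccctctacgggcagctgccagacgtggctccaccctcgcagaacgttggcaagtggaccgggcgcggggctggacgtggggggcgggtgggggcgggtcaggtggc
Hist1h4m: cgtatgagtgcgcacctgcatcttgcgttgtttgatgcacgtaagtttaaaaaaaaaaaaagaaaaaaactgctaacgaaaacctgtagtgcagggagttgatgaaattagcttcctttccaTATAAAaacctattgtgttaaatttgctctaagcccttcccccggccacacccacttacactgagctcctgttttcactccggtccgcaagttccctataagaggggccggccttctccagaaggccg
Hist1h1c: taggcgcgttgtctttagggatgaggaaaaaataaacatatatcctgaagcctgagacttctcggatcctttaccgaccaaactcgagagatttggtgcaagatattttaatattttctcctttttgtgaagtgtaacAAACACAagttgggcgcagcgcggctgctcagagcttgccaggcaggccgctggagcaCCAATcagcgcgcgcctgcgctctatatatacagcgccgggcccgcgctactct
Hist1h2bk: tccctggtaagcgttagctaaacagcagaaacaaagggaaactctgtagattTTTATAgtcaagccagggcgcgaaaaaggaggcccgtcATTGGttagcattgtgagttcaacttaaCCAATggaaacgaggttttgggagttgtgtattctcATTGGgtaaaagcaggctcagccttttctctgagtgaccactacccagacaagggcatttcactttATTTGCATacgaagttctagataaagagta

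RefSeq gave such a window for 62 of the 70 genes. CCAAT in either orientation was in 82.3% of these against 33.8% of all 32851 windows of that length. It was in every H1, H2A and H2B window, in 8 of 10 H3 windows and in 3 of 12 H4 windows. TATAAA was in 46.8% against 12.4%. The octamer was in 21.0% against 1.6%, in 7 of 18 H2A and 6 of 16 H2B windows and in no H1, H3 or H4 window. AAACACA was in 5 of 6 H1 windows and in 6.25% of all windows. The 4 motifs do not overlap as letters, windows of neighbouring divergent genes can share DNA, and a match is a description of letters, not of binding. CCAAT was in 80.0% of the windows of members that fell with UV and in 83.8% of the others, TATAAA in 52.0% and 43.2%, and the octamer in 32% and 13.5%.

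The first comparison asked whether transcript levels in the input libraries differ between UV and control skin. Of the 70 genes, 27 fell with UV and none rose, by the quasi-likelihood F test of edgeR with Benjamini-Hochberg adjustment over all genes at 0.05. Over all 24099 genes tested, 2.81% were called lower and 3.02% higher. All 70 histone genes passed the filter on low counts, 63 of them had a change below 0, and their median log2 change was −0.53 against −0.02 for all genes tested. In 42 of the 70 (60.0%) every UV sample lay below every control sample, and in none above, against 15.5% of all genes each way. The count moved with the samples used. With Control 1 left out it was 9 (1.09% of all genes called lower). With UV 1 left out it was 7 (0.473%), with UV 2 left out 8 (0.635%) and with UV 3 left out 8 (0.674%). Every one of those calls was among the 27. With library size in place of TMM scaling the background was 1.89% higher and 4.23% lower.

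**Figure D1:**
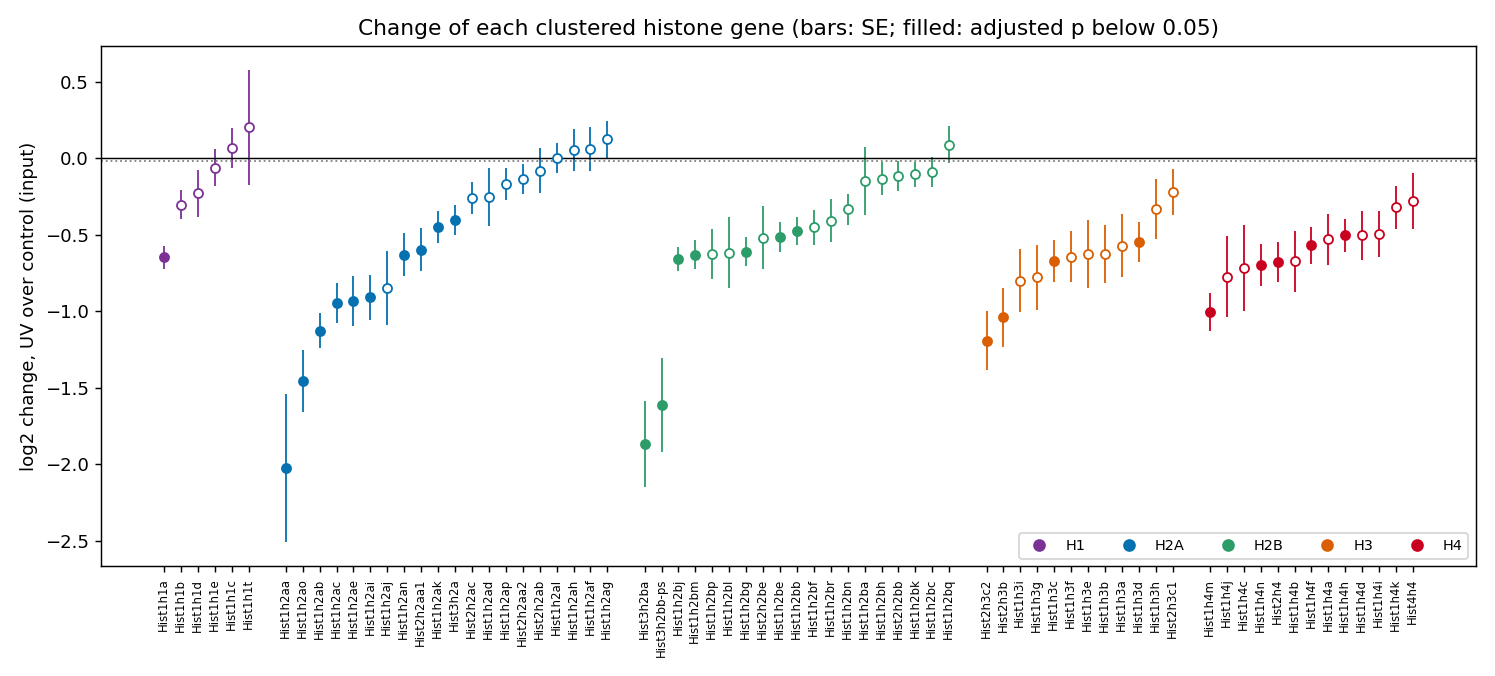
Log2 change of input CPM, UV over control, for each of the 70 clustered histone genes (y axis), ordered within H1, H2A, H2B, H3 and H4 (x axis); bars are standard errors, filled points are the 27 genes called at an adjusted p below 0.05, and the dotted line is the median of all genes tested. All H3 and H4 genes sit below 0, while the H1, H2A and H2B genes reach from −2.02 to 0.20.

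Hist1h1a, Hist1h2ab, Hist1h2ac, Hist1h2ao, Hist1h2bj and Hist1h4m, 6 of the 27, were called under all 11 alternatives run. Hist1h2ab, a core H2A gene, had 26.4, 21.3 and 26.1 CPM in control samples 1 to 3 and 10.8, 12.4 and 10.6 in UV samples 1 to 3. The groups lay far apart, and the log2 change was −1.13 (SE 0.11, adjusted p 0.00367 by edgeR). Hist1h4m, an H4 gene, had 30.3, 23.3 and 31.8 CPM in control and 14.3, 14.9 and 13.5 in UV. Control 2 was the lowest of the controls and still above every UV sample, with a log2 change of −1.005 (SE 0.12, adjusted p 0.00587 by edgeR).

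Hist1h1a, a linker histone gene, had 37.7, 37.7 and 38.8 CPM in control and 23.8, 25.1 and 24.0 in UV, the narrowest spread within groups of these genes. Its log2 change was −0.65 (SE 0.07, adjusted p 0.00478 by edgeR). Hist1h2bj, a core H2B gene, had 47.8, 47.7 and 52.2 CPM in control and 29.6, 31.7 and 32.2 in UV, a log2 change of −0.66 (SE 0.08, adjusted p 0.0054). Both genes thus kept nearly the same level within each group. Hist1h2ac had 8.69, 9.44 and 10.2 CPM in control and 4.26, 4.85 and 5.52 in UV, a log2 change of −0.95 (SE 0.13). Hist1h2ao had 6.29, 4.55 and 6.81 CPM in control and 2.64, 2.02 and 1.88 in UV, a log2 change of −1.45 (SE 0.20). These H2A genes were less abundant than Hist1h2ab, and their groups did not overlap either.

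**Figure D2:**
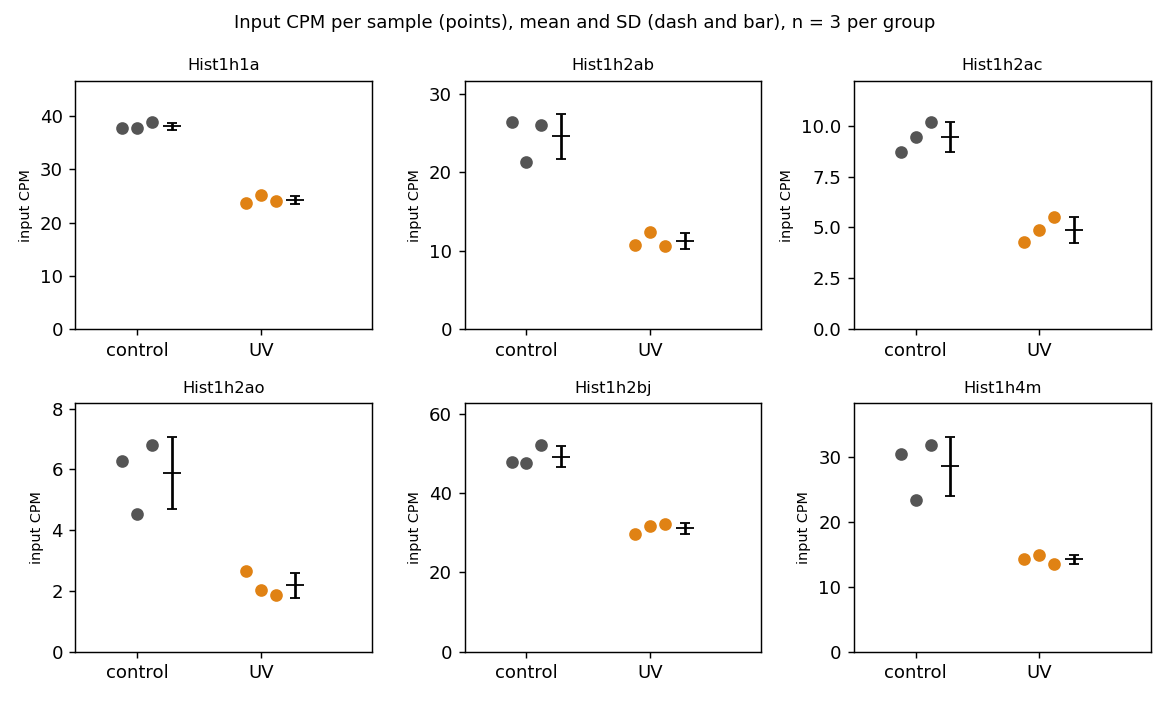
Input CPM (y axis, from 0) of the 6 histone genes called under all 11 alternatives, with a point per sample for control and UV skin and the mean with its SD beside them (n = 3 per group). In each gene every UV sample lies below every control sample, for example at 10.6 to 12.4 against 21.3 to 26.4 CPM for Hist1h2ab.

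Among the linker histones, Hist1h1a was the only 1 of 6 genes to fall. Hist1h1c, a widely expressed linker histone gene, had 363, 409 and 500.3 CPM in control and 428, 416 and 490 in UV, and the groups overlapped. Its log2 change was 0.07 (SE 0.13), and its sign turned under 3 alternatives. Hist1h1e had a log2 change of −0.06 (SE 0.12), Hist1h1d −0.23 (SE 0.15) and Hist1h1b −0.30 (SE 0.10, adjusted p 0.0952 by edgeR). Hist1h1t, which encodes the testis linker histone, stayed at 0.45 to 1.14 CPM in all input libraries.

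Of the 20 H2A genes 10 fell, and the median log2 change of the type was −0.43. Besides those above they were Hist1h2ae (−0.93), Hist1h2ai (−0.91), Hist1h2an (−0.63), Hist2h2aa1 (−0.60), Hist1h2ak (−0.45), Hist3h2a (−0.40) and Hist1h2aa. Hist1h2aa, a testis H2A gene, was near the limit of detection, at 0.47, 0.27 and 0.52 CPM in control and 0.06, 0.08 and 0.16 in UV. The change of −2.02 in log2 (SE 0.49, adjusted p 0.0488 by edgeR) was the largest of any member, and the call was kept under only 3 of the 11 alternatives: library size scaling, no filter and leaving out Control 2. With halved counts and with DESeq2 it had no adjusted p. Hist2h2aa2 was the H2A gene with the highest level per length, 405 ± 39.2 RPKM (CPM per kilobase of the deposited gene length; SD, n = 3) in control and 368 ± 23.9 in UV, and was not called (log2 −0.14, SE 0.10). Hist1h2al, a transcribed pseudogene, followed at 266 ± 22.5 and 266 ± 24.4 RPKM.

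The H2B genes split in a like way, with 7 of 19 lower and a median log2 change of −0.47. Hist3h2ba had 1.78, 1.66 and 1.30 CPM in control and 0.28, 0.51 and 0.47 in UV, a log2 change of −1.87 (SE 0.28, adjusted p 0.0119 by edgeR) that was called under 10 of 11 alternatives and lost without Control 1. The other called H2B genes were Hist3h2bb-ps (−1.61), Hist1h2bm (−0.63), Hist1h2bg (−0.61), Hist1h2be (−0.52) and Hist1h2bb (−0.47). Hist1h2bn (−0.33, SE 0.10) was not called. Hist2h2bb, the H2B gene with the highest level per length, was at 309 ± 36.1 RPKM in control and 286 ± 15.3 in UV and was not called (log2 −0.11, SE 0.10). Hist1h2bk, printed above, had 25.6, 28.8 and 28.3 CPM in control and 25.3, 26.0 and 25.5 in UV, and was not called either (log2 −0.11, SE 0.08).

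H3 and H4 genes leaned the same way throughout: all 12 H3 and all 13 H4 changes were below 0, with medians of −0.64 and −0.57, and 4 and 5 of them passed the test. Hist2h3c2 had 11.7, 7.32 and 11.96 CPM in control and 4.32, 5.07 and 4.28 in UV, a log2 change of −1.19 (SE 0.19, adjusted p 0.0142 by edgeR). Hist2h3b (−1.04), Hist1h3c (−0.67) and Hist1h3d (−0.55) were the other called H3 genes, and Hist1h3d lost its call under 8 alternatives. The called H4 genes besides Hist1h4m were Hist1h4n (−0.70), Hist2h4 (−0.68), Hist1h4f (−0.57) and Hist1h4h (−0.50). The remaining H3 and H4 genes among the 4 most abundant of their type were not called: Hist1h3i (−0.80), Hist1h3a (−0.57), Hist1h3h (−0.33), Hist1h4d (−0.50) and Hist1h4k (−0.32). Per length the H3 genes were the least abundant, at no more than 17.8 ± 2.73 RPKM in control (Hist1h3c), against 73.5 ± 9.11 for the leading H4 gene, Hist1h4h. H3 proteins are also made from genes outside these clusters, described below.

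Summed over genes, the difference was smaller than in the typical member, and H1 genes made up a large part of the sum. All 70 genes summed to 2242, 2334 and 2711 CPM in control and 2053, 1995 and 2226 in UV, a ratio of the means of 0.861. H1 genes summed to 896, 1058 and 1198 CPM in control and 964, 933 and 1088 in UV, and overlapped. H2A genes summed to 553, 534 and 625 against 494, 470 and 515, and H2B genes to 498, 531 and 587 against 425, 413 and 441, with no overlap in either type. H3 genes summed to 83.7, 58.2 and 83.8 against 45.4, 47.7 and 51.4, and H4 genes to 212, 153 and 218 against 125, 132 and 132. In H3 and H4, Control 2 lay between the other controls and the UV samples. Control 2 was also the shallowest input library and had the highest skeletal muscle sum. The part of this sample in the result was not tested beyond leaving it out, which gave 39 lower members (2.51% of all genes).

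**Figure D3:**
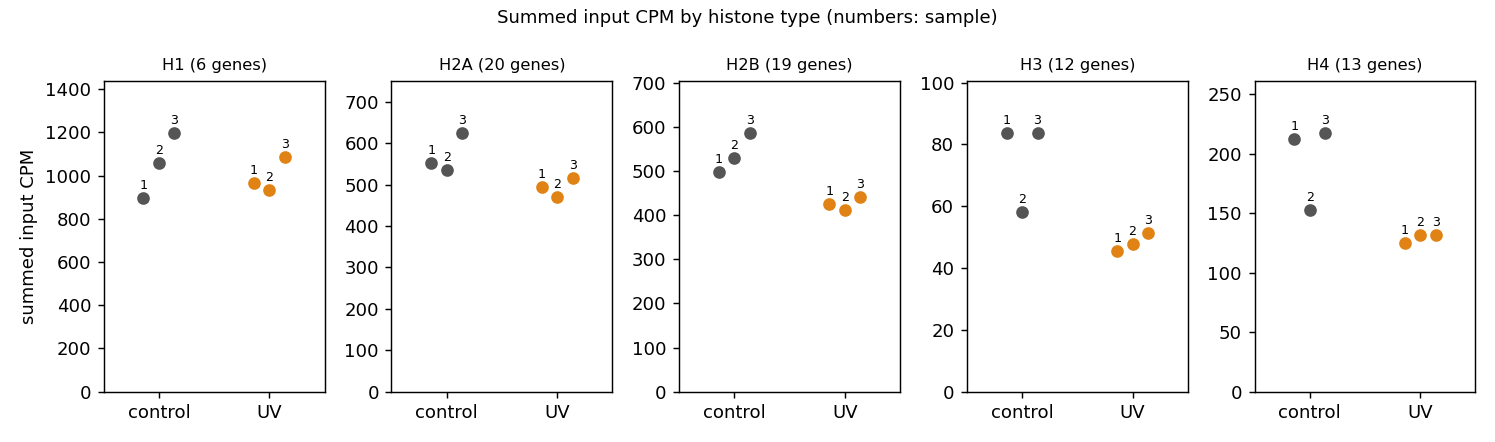
Summed input CPM (y axis, from 0) of the 6 H1, 20 H2A, 19 H2B, 12 H3 and 13 H4 genes in each control and UV sample (x axis; the digit by each point is the sample number). H1 sums overlap between groups, whereas for H2A, H2B, H3 and H4 every UV sample lies below every control sample.

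Levels of single members carry an uncertainty of their own. Genes of a type are near copies of each other, and the labels do not say how the authors' counting treated reads that match several genes. Hist2h2aa1 and Hist2h2aa2, a duplicated pair, were given 9.36 and 193 CPM in Control 1, and 6.70 and 200.2 CPM in UV 1. The level of either gene alone is therefore uncertain.

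Many H2A and H2B genes stand back to back and share the DNA between their starts. By the coordinates of the count table there were 14 such pairs, with 172 to 305 bases between the gene ends that face each other. Both genes were called lower in 2 pairs, 1 gene in 8 pairs and neither in 4. Hist1h2bj fell while its partner Hist1h2ag had a log2 change of 0.12 (SE 0.12), across 269 bases. Hist1h2ao fell while Hist1h2bq, 265 bases away, had 0.09 (SE 0.12), and Hist1h2ac fell while Hist1h2bc, 274 bases away, had −0.09 (SE 0.10). In Hist1h2ae and Hist1h2bg, 286 bases apart, both fell. The difference between the partners of a pair was not tested.

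Related genes outside the clusters were then set beside them. The replication-independent and variant histones (H2afz, H3f3a, H3f3b, H1f0 and others), most of which are made throughout the cell cycle from polyadenylated messages, had a median log2 change of 0.04 over the 11 tested. Of these H2afj alone rose, from 61.8, 55.8 and 73.9 CPM in control to 97.7, 87.1 and 93.4 in UV (log2 0.54, SE 0.11, adjusted p 0.0312 by edgeR), a call lost when Control 1 or any UV sample was left out. H3f3b, which encodes the variant H3.3 protein, had 110, 98.3 and 119 CPM in control and 123, 125 and 128 in UV and was not called (log2 0.20, SE 0.09).

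Factors that make or control histone messages (19 tested, among them Npat, Slbp, Lsm10, Lsm11 and Casp8ap2) had a median of 0.14, with 1 higher and none lower. The 1 that rose was Coil, which encodes coilin, the scaffold of Cajal bodies. It had 9.21, 7.63 and 9.38 CPM in control and 20.5, 17.5 and 20.6 in UV, a log2 change of 1.15 (SE 0.12, adjusted p 0.00367 by edgeR) that was called under all 11 alternatives. Among the 16 histone chaperones none was called, with a median of 0.11; Hat1, a histone acetyltransferase for new H4, had 0.49 (SE 0.13, adjusted p 0.0596).

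No S phase or replication gene fell. Of 26 tested, 1 rose, and the median log2 change was 0.23. Ccne1, which encodes the S phase entry regulator cyclin E, had 4.67, 4.47 and 4.49 CPM in control and 8.18, 7.49 and 7.87 in UV (log2 0.79, SE 0.11, adjusted p 0.00921 by edgeR), a call lost without UV 1. Rrm1, a subunit of ribonucleotide reductase, had 0.32 (SE 0.08) and Mcm3, part of the replicative helicase, 0.40 (SE 0.11), neither of them called.

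Because messages of clustered histone genes typically lack a poly(A) tail, other RNAs of that kind were listed beside them. The tail of the RNA counted here was not measured. Of 11 tested, 2 fell and none rose, with a median log2 change of −0.47. Changes were not all of one sign: Terc had 0.31, Rnu12 0.26, Neat1 0.22 and Malat1 0.21, none of them called. The summed CPM of the list was 31752 to 32826 in control and 34554 to 37500.1 in UV. Malat1 made up most of that sum, at a mean of 27857 CPM in control and 32213 in UV. The pair that fell were Y RNAs, small partners of the Ro protein: Rny3 had 43.5, 75.5 and 61.8 CPM in control and 21.2, 21.8 and 22.7 in UV (log2 −1.46, SE 0.18), and Rny1 −1.44 (SE 0.23). Rn7sk, which holds the elongation factor P-TEFb, had 903, 597 and 984 CPM in control and 555, 583 and 654 in UV (log2 −0.47, SE 0.18, not called). Rpph1, the RNA of ribonuclease P, had 766, 516 and 971 against 552, 501 and 557 (log2 −0.49, SE 0.20, not called). In both, Control 2 was the lowest control, as for the H3 and H4 sums. In Rny3 and Rny1 it was the highest control, at 33.0 CPM against 16.0 and 26.6 in Rny1. Whether the capture of RNAs without a tail differed between the samples was not tested.

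**Figure D4:**
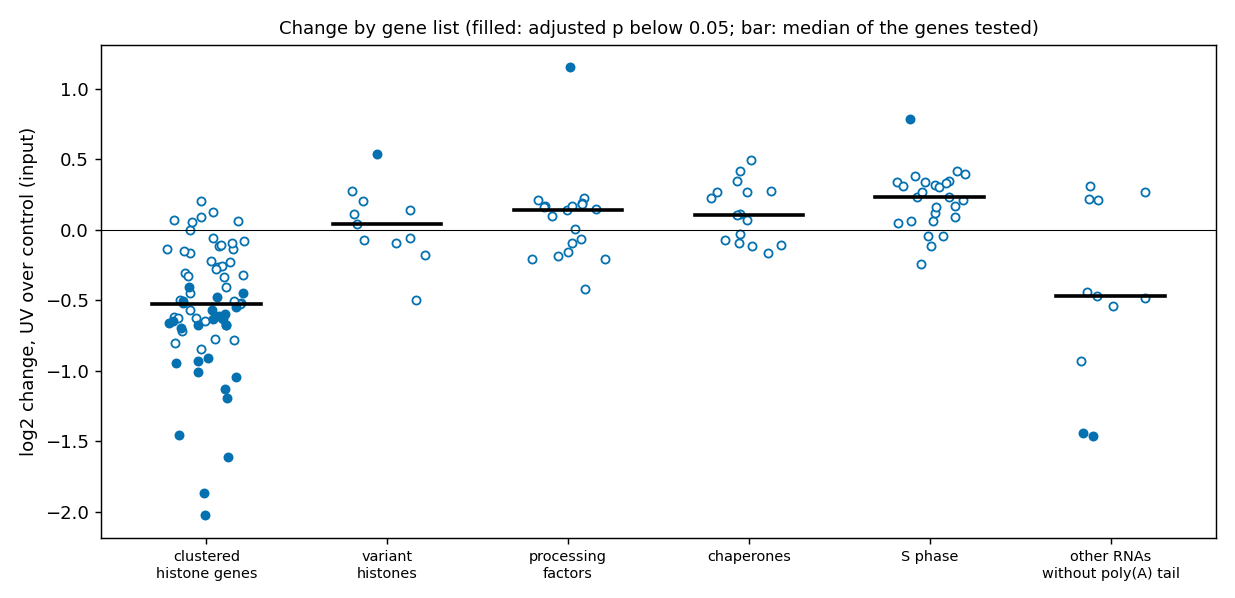
Log2 change of input CPM, UV over control (y axis), for the 70 clustered histone genes and for the tested genes of 5 related lists (x axis); each point is a gene, filled points have an adjusted p below 0.05, and bars are medians. The bars lie at −0.53 for clustered histones and −0.47 for other RNAs without a poly(A) tail, and at 0.04 to 0.23 for the other lists.

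The second question was how strongly the m6A antibody enriched histone messages. In control skin 16 of the 70 were higher in IP than in input and 30 lower, with 24.6% and 25.8% of all 25022 genes tested called higher and lower. In UV skin 22 were higher and 26 lower, against 24.7% and 24.3%. The median log2 ratio of IP over input was −0.26 in control and −0.06 in UV, against −0.04 and −0.01 for all genes. These ratios are relative to the scaling: with library size in place of TMM the median of all genes moved to −0.29 and −0.16, and the member counts to 13 higher and 37 lower in control (15.4% and 35.3% of all genes) and 22 and 28 in UV (18.3% and 29.8%). With the sample block, which pairs IP and input of the same RNA, 23 members were higher and 34 lower in control (30% and 31.1% of all genes), and 24 and 27 in UV (30.4% and 30.1%). No call was lost with it, and 11 were gained in control and 3 in UV. Enrichment by the antibody is measured over the whole message and does not locate the mark.

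By type, 3 of 6 H1 genes were higher and none lower in control and in UV, and the type median was 0.66 in control. With the sample block Hist1h1d was higher as well in control (0.28, SE 0.04, adjusted p 5.14e-06 by edgeR) and in UV, and Hist1h1a was lower in control (−0.27, SE 0.08, adjusted p 0.00458). H2A had 8 higher and 4 lower in control, H2B 3 and 11, H3 0 and 8, and H4 2 and 7. In UV the counts were 10 and 4 for H2A, 3 and 10 for H2B, 2 and 6 for H3, and 4 and 6 for H4. With the sample block the control counts were 11 and 4 for H2A, 3 and 12 for H2B, 0 and 10 for H3, and 5 and 7 for H4, and in UV only those of H1 and H4 moved, the latter to 5 and 7. The difference between types was not tested.

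Hist1h1e, a linker histone gene, had log2 IP over input of 1.47, 1.32 and 1.42 in control samples and 1.51, 1.63 and 1.56 in UV samples. Its fitted ratios were 1.40 (SE 0.13) and 1.57 (SE 0.13). Hist2h4, an H4 gene, had 1.23, 1.56 and 1.30 in control and 1.65, 1.70 and 1.68 in UV. Within the same type, Hist1h4h stood at the other end, with −3.83, −2.59 and −3.46 in control and −2.97, −3.12 and −2.68 in UV. All of these ratios were called in both conditions and under every alternative run. H4 genes encode the same protein, so a spread this wide lay among messages with one product.

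Values also ranged widely within H2A and H2B. Hist1h2af (1.47 in control, 1.29 in UV), Hist1h2ak (1.35 and 1.504) and Hist1h2an (1.18 and 1.47) had the highest ratios among H2A genes in control, and Hist1h2ab (0.89 and 1.65) in UV, while Hist1h2al was at −1.15 and −1.40. Hist1h2be (1.01 and 1.15) and Hist1h2bc (0.88 and 0.72) were higher in IP among H2B genes. Hist1h2bk (−1.93 and −2.44), Hist1h2bj (−1.70 and −1.52) and the testis gene Hist1h2ba (−3.79 and −3.07) were lower. Hist1h3e was the lowest H3 gene in control, at −1.70, with −1.28 in UV. For comparison, the variants H2afx and H1f0 were at 1.19 and 0.99 in control, and H2afz and H3f3a at −1.31 and −1.07.

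**Figure D5:**
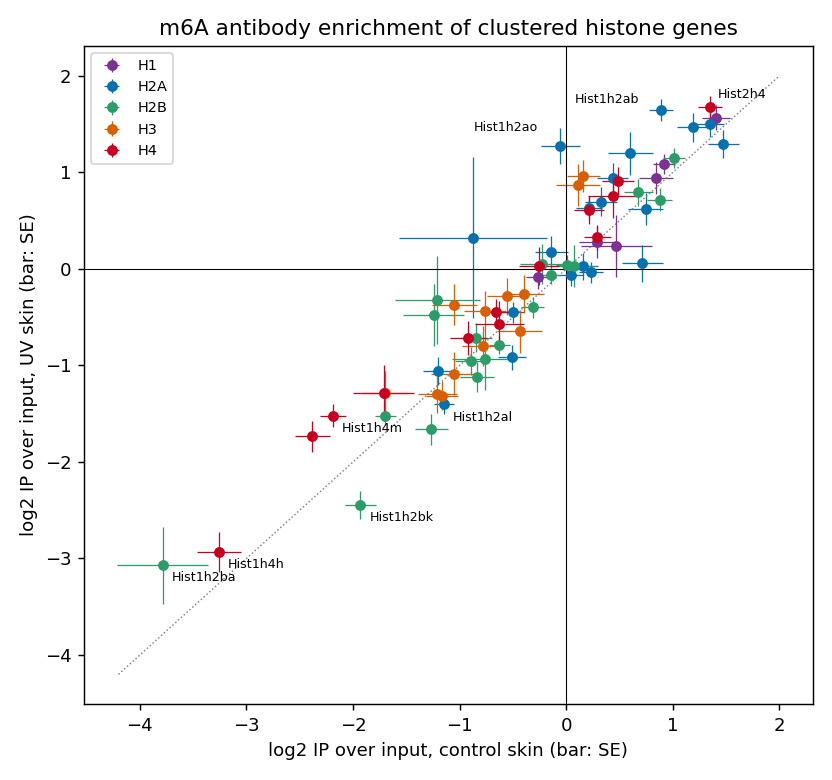
Log2 ratio of IP over input for the 70 clustered histone genes in control skin (x axis) and UV skin (y axis), coloured by histone type; bars are standard errors and the dotted line marks equal values. Points follow the line from Hist1h2ba (−3.79, −3.07) to Hist2h4 (1.35, 1.68), with Hist1h2ao and Hist1h2ab above it.

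The third question was whether this enrichment changed with UV. No histone gene was called by the interaction test of edgeR, and of all 25022 genes 3 were called higher (0.012%) and none lower (0%). At an unadjusted p below 0.05 there were 11 histone genes, 9 of them higher, against 4.43% of all genes, and the smallest adjusted p of a member was 0.251. The median change over the 70 was 0.15, and all 13 H4 genes had a change above 0. Input libraries enter both this comparison and that of expression, so the results are not independent.

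When IP and input from the same RNA were paired (sample block), the fit called 3 members higher and none lower, where 0.843% and 0.751% of all genes were called. Hist1h2ao had log2 ratios of −0.14, 0.39 and −0.31 in control and 1.18, 1.06 and 1.53 in UV, and its change with the block was 1.31 (SE 0.20, adjusted p 0.000977 by edgeR). Hist1h2ab had 0.94, 0.89 and 0.84 in control and 1.64, 1.496 and 1.81 in UV, a change of 0.76 (SE 0.09, adjusted p 0.000113). Hist1h4m had −2.29, −1.81 and −2.40 in control and −1.47, −1.65 and −1.41 in UV, a change of 0.64 (SE 0.14, adjusted p 0.0244). In all 3 every UV ratio was above every control ratio, a description only, since the fit called them from the same libraries. The share of all genes with ratios so separated was not computed. All 3 are also among the genes whose input level fell. DESeq2 called Hist1h2ao and Hist1h2ab without the block, and its share of calls over all genes was not computed.

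Peaks, the regions where the authors' caller found IP reads piled up, were named for 16 of the 70 genes (22.9%), against 48.7% of the 25022 genes tested for enrichment. They covered 3 H1, 6 H2A, 3 H2B and 4 H4 genes, and no H3 gene. The 27 peaks, 16 called in UV and 11 in control, made up 18 distinct regions, of which 9 were called in both arms. Of all 42989 peaks, 24969 were called in UV and 18020 in control. Of the 16 genes with a peak 11 were higher in IP than in input in control, and 5 of the 54 without; the peak caller used the same IP reads, so this is a description.

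Peaks were named for 3 of the 6 linker histone genes. Their reads are set against those of the gene as a ratio, since the peak and gene tables count differently. The UV peak of Hist1h1e (chr13:23621755-23622382, minus strand, GRCm38, 628 bases of its single exon) had a ratio of peak to gene reads of 0.991 in IP and 1.08 in input. Hist1h1c had a main UV peak near its start side (chr13:23739138-23739438, plus strand, ratio 0.924 in IP and 0.842 in input) and a second one further along (chr13:23739737-23740127, 0.039 and 0.018). The peak of Hist1h1b called in UV (chr13:21780002-21780299, minus strand) had 0.878 in IP and 0.687 in input. Short single-exon genes leave little room for a peak to be placed within them.

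No histone peak was called for a change of IP over input with UV, as none of 39910 peaks tested were (0%). At an unadjusted p below 0.05 there were 7 of the 27, all higher, against 8.08% of all peaks, and the smallest adjusted p was 0.540 (Hist1h4a). Change was above 0 in 21 of 27. Both counts take in the UV-called and control-called peaks of Hist1h2an and Hist1h2be, which cover the same or nearly the same bases. The 21 also take in overlapping UV-called and control-called peaks of Hist1h1b, Hist1h1e, Hist1h2ai and Hist1h2ak. The share of all peaks with a change above 0 was not computed. Peaks of Hist1h2al, Hist1h2bc, Hist2h2be, Hist1h4a, Hist1h4i and Hist1h4k were called in UV skin only. Those of Hist1h2ap and Hist2h4 were called in control skin only. Among these genes the change was −0.22 for Hist1h2al and −0.33 for Hist2h4, and above 0 for the others. Of the 27, 16 were called in UV and 11 in control, and of all 42989 peaks 24969 and 18020. A peak called in UV was picked on its IP reads there, so these counts are a description. With the sample block, the UV-called and control-called peaks of Hist1h2an, which overlap and are not independent, were higher, where 0.393% of all peaks were called higher and 0.479% lower. The UV-called one (chr13:21786826-21787134, minus strand) had log2 ratios, relative to the average peak, of −0.39, −0.29 and −0.29 in control and −0.01, 0.06 and 0.18 in UV, a change of 0.41 (SE 0.10, adjusted p 0.0442 by edgeR). In the authors' deposited table no histone peak had an FDR below 0.05. The lowest FDR of a histone peak there was 0.545, for Hist1h4i, with a log2 change of 1.21.

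Some peaks hold reads that the gene table does not. The UV peak of Hist1h2ai, 281 bases inside the gene, was given 12.5 times the input reads of the whole gene, and that of Hist1h4a 2.18 times. Peak and gene values of these genes thus rest on different counting. The peak of Hist1h2be spans 35184 bases of genome in a gene model of more than 1 exon block. A peak named for Gm20632, on the opposite strand, meets Hist2h2aa2 only at the edge of the gene and was not counted among the 27.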

How the data were processed

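Input and m6A IP libraries of 3 control and 3 UV mouse skin samples were used, 12 in all. The deposited gene table holds raw read counts for 49492 genes, and the deposited peak table raw read counts per peak with the authors' log2 change, p-value and FDR, per the file headers. STAR 2.5.3a and the GRCm38 build are named in the submitters' processing notes. The counter, use of strand and peak caller are not given in the sources.

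Counts were filtered with filterByExpr, scaled with TMM and tested in edgeR 4.0.16 (quasi-likelihood F test, R 4.3.3), with Benjamini-Hochberg adjustment over all genes or peaks and calls below 0.05. Expression compared UV and control inputs. Enrichment compared IP with input in all 12 libraries, and its change with UV was the interaction. Ratios per sample used a prior count of 2. The fits were tested on simulated data. DESeq2 1.42.0 was an alternative, beside library size scaling, no filter, halved counts, the replicate block and leaving out each sample. Deviations of IP and input from the same sample correlated at 0.61 to 0.874, and the labels give them as 1 sample, so the sample block is printed beside the enrichment counts it changes. The members, lists and motifs were chosen with earlier results of these data known. The text names the 4 most abundant members of each type, members called in expression or in the enrichment change, leading members in enrichment, members with a peak that differ, and up to 4 leading genes of other lists. SE is the log2 change divided by the square root of F. Precision is limited by 3 samples per group.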

Additional observations from a re-analysis of the deposited data

Results flagged for a closer look

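The change of antibody enrichment between control and UV skin was tested as the difference itself, with IP and input paired by sample (sample block), and passed at 0.05 for 3 histone genes and for the overlapping peaks of another. The log2 change was 1.31 for Hist1h2ao, 0.76 for Hist1h2ab and 0.64 for Hist1h4m, each higher in UV. It was 0.41 for the UV-called peak of Hist1h2an and 0.41 for its control-called peak, which cover nearly the same bases. Without the block edgeR called none of these. With it, 0.843% of all genes and 0.393% of all peaks were called higher. The 3 genes were also called lower in input, and input enters this ratio.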

How the results depend on the processing

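Under all 11 alternatives the median log2 change of histone expression was below 0, at −0.62 with library size scaling and −0.59 to −0.46 when 1 sample was left out. The number of members called lower was 35 with library size scaling (4.23% of all genes), 35 with DESeq2 (5.66%), 30 without a filter (2.83%), 27 with halved counts (3.34%), 17 with the replicate block (1.43%), and 7 to 39 when 1 sample was left out; leaving out a sample also leaves fewer samples. The replicate block joins the same number of control and UV, whose inputs correlated at −0.109, 0.114 and −0.262, so the number does not pair them, and leaving out UV 1 gave the lowest count. For enrichment change, the replicate block was the sample shared by IP and input. It called 3 genes (0.843% of all genes) and 2 peaks (0.393% of all peaks) higher. DESeq2 called 2 genes, and its share over all genes was not computed. The cause of these differences was not tested. Of the values for named genes, 104 expression values lost their call, 19 gained one and 10 turned in sign; 5 enrichment change values gained a call. Signs turned in members near 0: Hist1h1c (−0.0276 with library size, −0.0218 to 0.21 leaving out a sample), Hist1h1e (−0.14 to 0.0579), Hist1h2al (−0.0983 with library size, −0.00605 with halved counts, −0.0748 to 0.0746), Hist1h2bq (−0.0137 with library size) and the control enrichment of Hist1h2ao (−0.23 to 0.0887). Members under 1 CPM, such as Hist1h2aa, are limited by depth.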
